A study of Mus musculus with 12 samples.

Results

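The genes described here are 10 mouse genes used as markers of alternatively activated macrophages: Chil3, Chil4, Retnla, Arg1, Mrc1, Mgl2, Clec10a, Ccl17, Ccl22 and Ccl24. They were found by their gene symbols among the 78298 gene identifiers of the count table, and all 10 were among the 22190 genes that passed the filter on low counts. They were selected on values of these data as well as on their function, above all the Chil3 levels of the normal lung libraries, so levels in normal lung under the 2 treatments are given as a description with no test. Comparisons of Chil3 in tumour against normal lung use the same normal levels, so their p-values are descriptive. The study sequenced RNA of dissected LLC tumours of the mouse lung and of the normal lung beside them, after chronic exposure to house dust mite (HDM) or under the treatment labelled VEH. There were 3 libraries in each of 4 groups, called here by tissue and treatment: normal VEH and tumour VEH, and normal HDM and tumour HDM. The labels used here give no strain, age or sex, and do not spell out VEH or LLC. Nothing in them says whether the 3 libraries of a group came from separate mice, so p-values measure the spread between these libraries. That spread exceeded counting error, with a chi-square per degree of freedom of 30.9 to 284 between libraries of a group. Whether it lies between mice or is technical was not tested.

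Macrophages take up the alternative state when interleukin-4 or interleukin-13 binds a receptor built on the shared chain Il4ra, which activates the transcription factor Stat6. Secreted chitinase-like and resistin-like proteins, the enzyme arginase, C-type lectin receptors and chemokines for type 2 immune cells are its classical mouse markers. None of these genes belongs to that state alone. In the lung, resting alveolar macrophages make large amounts of Chil3, airway epithelium can make Retnla, and dendritic cells make Ccl17 and Ccl22.

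The response to interleukin-4 runs through STAT sites, and the promoters of Chil3, Chil4, Retnla and Ccl17 are shown because theirs held matches to STAT motifs. RefSeq (GRCm38.p6) held the 250 bases upstream of the start of 7 of the 10 genes, all but Arg1, Clec10a and Ccl24. Each is printed 5′ to 3′ with motif matches in capitals: Chil3 at chr3:106167565-106167814, minus strand; Chil4 at chr3:106219480-106219729, minus strand; Retnla at chr16:48842359-48842608, plus strand; Ccl17 at chr8:94810203-94810452, plus strand.
Chil3: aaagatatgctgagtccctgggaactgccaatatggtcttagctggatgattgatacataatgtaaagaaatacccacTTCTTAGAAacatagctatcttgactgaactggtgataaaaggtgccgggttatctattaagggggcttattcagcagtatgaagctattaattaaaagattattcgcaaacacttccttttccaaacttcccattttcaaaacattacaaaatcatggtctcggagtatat
Chil4: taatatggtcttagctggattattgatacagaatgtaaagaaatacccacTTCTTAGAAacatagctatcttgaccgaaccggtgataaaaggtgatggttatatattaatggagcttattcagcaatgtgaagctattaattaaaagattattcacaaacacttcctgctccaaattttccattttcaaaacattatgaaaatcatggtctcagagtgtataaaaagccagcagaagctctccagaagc
Retnla: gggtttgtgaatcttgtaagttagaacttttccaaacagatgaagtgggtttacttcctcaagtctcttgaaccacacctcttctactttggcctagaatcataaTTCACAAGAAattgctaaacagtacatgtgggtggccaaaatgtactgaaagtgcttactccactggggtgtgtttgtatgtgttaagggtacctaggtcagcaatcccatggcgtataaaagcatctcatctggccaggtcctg
Ccl17: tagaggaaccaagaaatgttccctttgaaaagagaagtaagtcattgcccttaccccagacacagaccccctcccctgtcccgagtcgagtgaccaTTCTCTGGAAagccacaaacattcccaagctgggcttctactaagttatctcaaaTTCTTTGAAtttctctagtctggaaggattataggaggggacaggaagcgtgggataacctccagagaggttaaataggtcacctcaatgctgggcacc
The spacing TTCNNNNGAA, which Stat6 prefers, was found in Retnla from -145 to -136 and in Ccl17 from -154 to -145, counted from the start site. The general STAT spacing TTCNNNGAA was found in Chil3 from -172 to -164, in Chil4 from -200 to -192 and in Ccl17 from -99 to -91. Both motifs read the same on either strand, and no matches overlapped. Among all 32851 upstream windows of that length, 5.85% held the first motif and 7.02% the second. Neither was found in the windows of Mrc1, Mgl2 and Ccl22. The Chil3 and Chil4 windows were 91% identical over 221 aligned bases and carried the same match, TTCTTAGAA. A match describes the letters and was not tested as a binding site.

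Total counts ran from 20608682 to 32765364 per library. The tumours were separated from normal lung by proliferation genes (summed level 457 to 930 CPM, counts scaled to a common library size, in tumours and 25 to 142 in normal lung), all 5 of which rose in the tumours under either treatment. Several libraries stood apart. Normal VEH 2 had the highest proliferation sum of the normal lungs (Mki67 at 33.7 CPM against 7.56 to 12.8 in the other 5), and tumour VEH 2 held more of the club cell gene Scgb1a1 (16300 CPM) than any other tumour. Tumour HDM 3 was at 2.27 CPM for Scgb1a1 and 3.12 for the alveolar type 2 cell gene Sftpc. The deposited library names carry 6 prefixes, each shared by 1 normal and 1 tumour library, and for 2 of them the treatment labels of the pair differ. Those 4 libraries are normal VEH 2 with tumour HDM 2 and normal HDM 3 with tumour VEH 3. What the prefix stands for is not given in the sources used here. If a prefix marks a mouse, the treatment labels of the conflicting pairs cannot all hold. An exchange of labels between normal VEH 2 and normal HDM 3 would change the contents of both normal groups. An exchange between tumour HDM 2 and tumour VEH 3 would remove the conflict as well, and would change both tumour groups. Neither exchange was tested. All values are given as labelled. Without these 4 libraries, tumour HDM against normal HDM gave log2 fold changes of -6.47 for Chil3 (adjusted p = 0.0203), -2.13 for Mgl2 (adjusted p = 0.0144), -4.25 for Ccl17 (adjusted p = 0.0447) and -1.87 for Ccl22 (adjusted p = 0.1).

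The differences of the marker genes that passed the test were lower levels in tumour HDM. Compared with normal HDM lung, 4 of the 10 genes fell in tumour HDM by edgeR's quasi-likelihood test (Benjamini-Hochberg adjusted p below 0.05), namely Chil3, Mgl2, Ccl17 and Ccl22, and none rose. At an unadjusted p below 0.05 there were 5, where 57.9% of all genes were below it. DESeq2 called 6 (the same 4, Chil4 lower and Arg1 higher), where it called 56% of all genes. With no filter, or with at least 10 counts in every library, edgeR called 3. Of all genes tested, 51.9% were called in that comparison, 23% higher and 28.9% lower in tumour, so the members' share was near the background. Chil3 is counted among the 4 although its normal levels helped to choose the members. Under VEH, 0 of 10 passed that test where 38.9% of all genes did. There, 2 members had an unadjusted p below 0.05 (49.8% of all genes), and DESeq2 called 2 (46.9% of all genes). Between tumour HDM and tumour VEH, 0 of 10 passed, against 0.0946% of all genes (0.00901% higher and 0.0856% lower). Here 4 members had an unadjusted p below 0.05 (16.7% of all genes), and DESeq2 called 3 (5.83% of all genes). The same tumour libraries enter the comparisons with normal lung and between treatments, so their values are not independent. How many of all genes have group ranges that do not overlap was not counted, so such separations below are descriptions. Between tumours, the non-members Cd3d, Ccr7 and C1qa were also lower in every tumour HDM library than in tumour VEH. In bulk tissue, fewer cells of a type and less RNA per cell cannot be told apart, which holds for each result that follows.

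**Figure D1:**
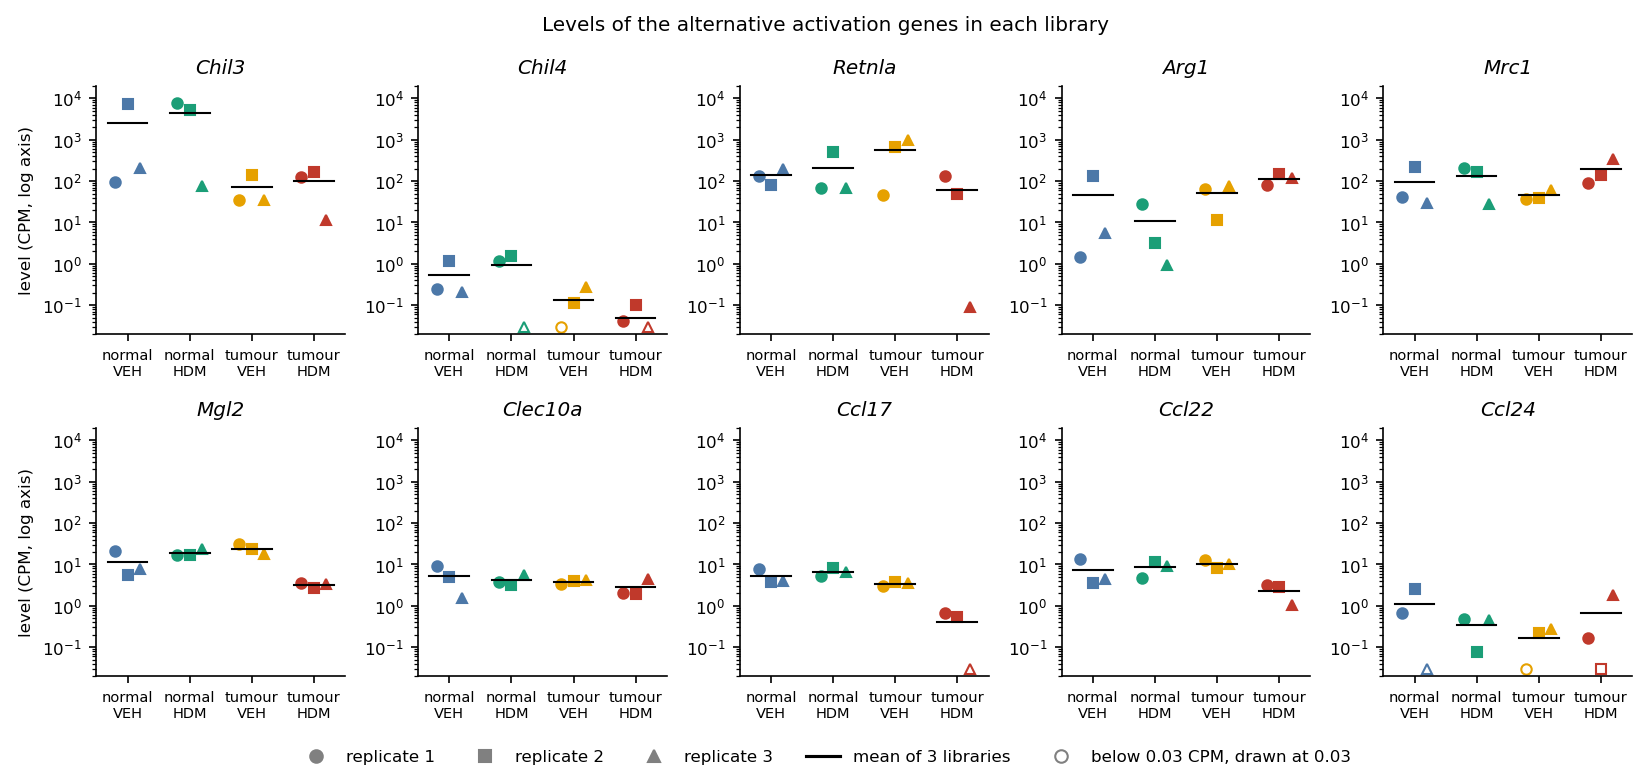
Level of each of the 10 genes in every library, in CPM on a log axis, with the 3 libraries of each group as points. Chil3 in normal lung splits into 3 libraries above 5000 CPM and 3 at or below 203, while Mgl2, Ccl17 and Ccl22 in tumour HDM sit below every library of the other 3 groups. How many of all genes separate in this way was not counted.

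Chil3 encodes Ym1, a secreted chitinase-like protein without enzyme activity (Ensembl ENSMUSG00000040809, chr3:106054870-106074880 on the minus strand of GRCm39, as are the other gene positions). In normal VEH lung it stood at 95.0, 7313 and 203 CPM (replicates 1 to 3), and in normal HDM lung at 7705, 5271 and 75.3 CPM. In tumour VEH the levels were 34.2, 141.7 and 35.2 CPM, and in tumour HDM 123.3, 168.7 and 11.3 CPM. Thus 3 normal libraries, 1 labelled VEH and 2 labelled HDM, were high and the other 3 low, with a spread of 77-fold within normal VEH and 102-fold within normal HDM. The treatment labels did not follow that split. The 3 high libraries share their name prefixes with the 3 tumours labelled HDM, and the 3 low ones with the tumours labelled VEH.

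Tumour and normal ranges of Chil3 overlapped under both treatments. Normal Chil3 levels helped to choose the genes, so p-values of Chil3 against normal lung are descriptive only. The fitted log2 fold change in tumour HDM against normal HDM was -5.43 ± 2.0 (SE, adjusted p = 0.0419). This call was lost in 7 of 12 fits that each left out 1 library, among them every tumour HDM library, normal HDM 1 and 2, and tumour VEH 1 and 3, with adjusted p from 0.00166 to 0.133 over 22 alternatives. In tumour VEH against normal VEH the fold change was -5.17 ± 1.97 (adjusted p = 0.0598), without normal VEH 2 it was -1.08 (adjusted p = 0.576), and without the 4 libraries of conflicting prefixes -0.66 (adjusted p = 0.687). Read pair by pair along the name prefixes, Chil3 was lower in the tumour in 6 of 6 pairs, by log2 differences from -9.40 to -0.52. Those differences are a description, since normal Chil3 helped to choose the genes.

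Most alveolar macrophage genes were high in the same normal libraries as Chil3: for 9 of the 12 listed, the 3 highest normal libraries were those 3. Marco, Car4 and Cidec were the exceptions, with Marco at 1.8 CPM in normal HDM 1 and Car4 at 65, 114 and 144 CPM in the 3 against 105 to 151 in the others. Atp6v0d2, a subunit of the vacuolar proton pump and a marker of these cells, stood at 221, 226 and 169 CPM in normal VEH 2, normal HDM 1 and normal HDM 2, against 7.99 to 13.9 in the other 3. Ear2, a ribonuclease of the same cells, stood at 136, 131 and 96.5 CPM there, against 12.3 to 26.8. The summed level of the 12 alveolar macrophage genes ran from 240 to 1050 CPM in normal lung, 121 to 195 in tumour VEH and 36.8 to 117 in tumour HDM, and 7 of the 12 fell in tumour HDM against normal HDM, where 28.9% of all genes did. Car4 and Plet1 made up most of the sum in the normal libraries low for Chil3 (151 and 56 of 284 CPM in normal VEH 1). Car4 stood at 0.425 to 27.7 CPM in the tumours. The part of other lung cells in these levels was not tested. After the group means were removed, Chil3 followed the mean of that list with r = 0.98 over the 12 libraries, which share depth and tissue makeup. It followed other lists too, with r = 0.927 for B and plasma cells, 0.915 for eosinophils, 0.878 for neutrophils and 0.877 for further alternative activation genes. How many of all genes are highest in the same 3 normal libraries was not counted. Jchain, the joining chain of secreted antibodies, was high in the same 3 libraries (592, 1080 and 646 CPM against 4.46 to 12.5), whereas the neutrophil gene S100a9 was at 356 and 225 CPM in 2 of them and at 33.5 in normal HDM 2. Their part in the Chil3 levels was not tested.

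**Figure D2:**
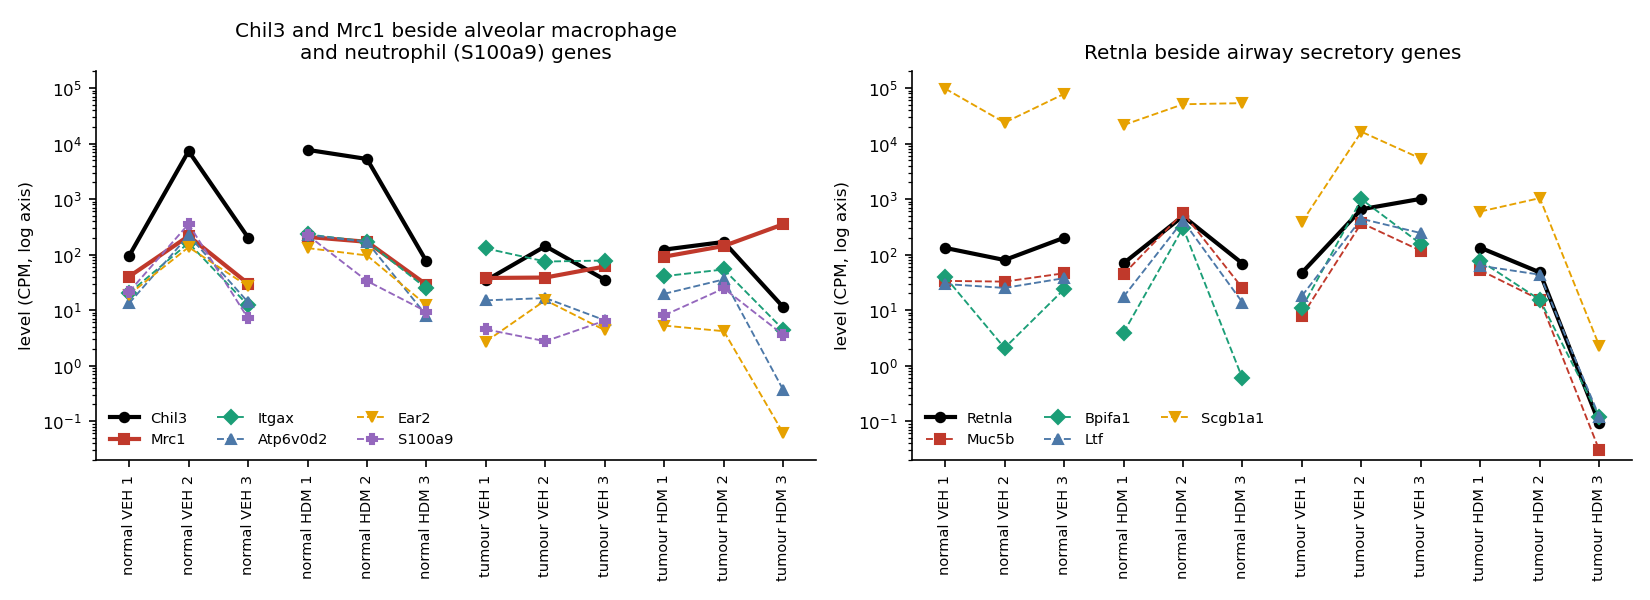
Levels in CPM on log axes of Chil3 and Retnla beside genes of other cell types, library by library. Chil3 is high in the same 3 normal libraries as Atp6v0d2, and Retnla is high in normal HDM 2, tumour VEH 2 and tumour VEH 3, where Muc5b stands at 564, 370 and 117 CPM.

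Chil4 encodes Ym2, the close relative of Ym1 (ENSMUSG00000063779, chr3:106108806-106126823, minus strand). It had 6, 37 and 5 counts in normal VEH, 28, 42 and 0 in normal HDM, 0, 3 and 6 in tumour VEH, and 1, 3 and 0 in tumour HDM. Its 3 highest libraries were the 3 high for Chil3. A reading of Chil4 as a gene of its own is uncertain, because the reference transcripts of the pair are 94.4% identical over 1538 aligned bases with an identical run of 136 bases, close to the 150-base reads, and the table does not say how shared reads were counted. In the 3 high libraries Chil3 exceeded Chil4 by 5740 to 11600 times per kilobase of deposited gene length. Those lengths are 1632 bases for Chil3 and 2817 for Chil4, while each reference transcript has 1539. The log2 fold change of Chil4 in tumour HDM against normal HDM was -4.14 ± 1.63 (adjusted p = 0.0526), just outside the threshold. It was called in 3 of 20 alternatives, with DESeq2 (adjusted p = 0.0211), without normal HDM 3 (0.0205) and without the 4 libraries of conflicting prefixes (0.0243).

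Retnla encodes RELMα, a secreted resistin-like protein (ENSMUSG00000061100, chr16:48662895-48664824, plus strand). Its level was 132.3, 79.8 and 201.4 CPM in normal VEH and 69.7, 493 and 69.1 CPM in normal HDM. Tumour VEH stood at 47.2, 655.4 and 1010 CPM and tumour HDM at 132.8, 47.8 and 0.091 CPM, the last being 3 counts. Single libraries were far apart within every tumour group, and the groups overlapped in each comparison. The log2 fold change in tumour HDM against tumour VEH was -3.25 ± 1.63 (adjusted p = 0.344), and -2.64 without tumour HDM 3; in tumour against normal it was 2.05 ± 1.56 under VEH (adjusted p = 0.306) and -1.81 ± 1.54 under HDM (adjusted p = 0.347).

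Some genes of the conducting airway were high in the same libraries as Retnla: for 4 of the 8 listed, the mucins Muc5ac and Muc5b, Clca1 and Bpifa1, the 3 highest of the 12 libraries were those of Retnla. The other 4, Scgb1a1, Scgb3a2, Foxj1 and Cyp2f2, did not share them; Scgb1a1 was highest in normal VEH 1 and 3 (97600 and 78300 CPM). In normal HDM 2, tumour VEH 2 and tumour VEH 3, the 3 libraries highest for Retnla, the mucin Muc5b stood at 564, 370 and 117 CPM and the airway secretory gene Bpifa1 at 304, 993 and 155 CPM. The other 9 libraries held 0 to 52.1 CPM of Muc5b and 0.121 to 77.3 of Bpifa1. The summed airway list ran from 470 to 20700 CPM in tumour VEH and from 4.06 to 1170 in tumour HDM. Within groups Retnla followed the mean of that list with r = 0.91 over 12 libraries. It followed other lists too, with r = 0.936 for the chitinase family, 0.879 for alveolar epithelium and 0.806 for endothelium. How many of all genes share the 3 highest libraries of Retnla was not counted. In tumour HDM 3, with 3 counts of Retnla, Muc5b was at 0. The part of airway tissue in the Retnla levels was not tested.

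Arg1 encodes arginase 1, which turns arginine into ornithine and urea (ENSMUSG00000019987, chr10:24791118-24803817, minus strand). In normal lung it stood at 1.48, 129.6 and 5.52 CPM under VEH and at 28.6, 3.17 and 0.958 CPM under HDM. In tumours it stood at 64.0, 11.6 and 75.1 CPM under VEH and at 78.7, 150.6 and 116.1 CPM under HDM. All 3 tumour HDM libraries exceeded all 3 normal HDM libraries, and all 3 tumour VEH libraries. Neither difference passed the test: the log2 fold change was 3.40 ± 1.59 in tumour HDM against normal HDM (adjusted p = 0.095) and 1.2 ± 1.46 against tumour VEH (adjusted p = 0.717). Along the name prefixes Arg1 was higher in the tumour in 6 of 6 pairs, by 0.22 to 6.18 on the log2 scale.

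The largest normal lung value of Arg1 came from normal VEH 2. Of the normal libraries, this one had the highest sums of proliferation, neutrophil (804 CPM) and mesothelial (846 CPM) genes. Within groups Arg1 had r = 0.821 with general macrophage, 0.818 with neutrophil and 0.645 with proliferation genes. The part of any of these cells in the Arg1 levels was not tested. The fold change under VEH moved with normal VEH 2. With it, tumour VEH against normal VEH was 0.14 ± 1.44 (adjusted p = 0.945), and without it 3.85 (adjusted p = 0.063), neither of which passed. Without normal VEH 2 the comparison under HDM passed the test (3.40, adjusted p = 0.0373), as it did without normal HDM 1 (5.80, adjusted p = 0.0355); over 22 alternatives its adjusted p ran from 0.0324 to 0.242. Leaving out normal VEH 2 and tumour VEH 2 together, a choice made after seeing the data, gave calls for Arg1 under VEH (4.32, adjusted p = 0.043) and under HDM (3.41, adjusted p = 0.0324). The non-coding gene Gm36172 lies on the opposite strand with 2573 counts against 18692 for Arg1 over all libraries, and whether counting used the strand is not given in the sources used here.

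Mrc1 encodes the mannose receptor CD206 (ENSMUSG00000026712, chr2:14234151-14336926, plus strand). Its level was 40.2, 215.9 and 30.1 CPM in normal VEH, 208.2, 170.2 and 28.7 in normal HDM, 37.9, 38.6 and 61.1 in tumour VEH and 91.9, 143.2 and 352.1 in tumour HDM. In normal lung it was highest in the 3 libraries that were high for Chil3. All tumour HDM libraries exceeded all tumour VEH libraries, without passing the test (log2 fold change 2.09 ± 0.88, adjusted p = 0.276, and 1.38 without tumour HDM 3). Tumour and normal overlapped, with fold changes of -1.06 ± 0.86 under VEH (adjusted p = 0.337) and 0.53 ± 0.85 under HDM (adjusted p = 0.623). The first turned to 0.39 without normal VEH 2, and the second to -0.08 without tumour HDM 3.

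Mgl2 encodes CD301b, a galactose-binding lectin of dendritic cells and macrophages (ENSMUSG00000040950, chr11:70020954-70028376, plus strand). It stood at 20.7, 5.48 and 7.87 CPM in normal VEH, 16.5, 16.8 and 24.3 in normal HDM, 30.9, 23.7 and 18.2 in tumour VEH and 3.61, 2.66 and 3.46 in tumour HDM. Tumour HDM was below all 9 other libraries. In tumour HDM against normal HDM, Mgl2 fell by 2.56 ± 0.46 on the log2 scale (adjusted p = 0.0012), and the call held in all 22 alternatives, 12 of them leaving out 1 library (adjusted p from 1.31e-07 to 0.0144).

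Under VEH, Mgl2 had the opposite sign, 1.10 ± 0.43 (adjusted p = 0.0648), a difference called in 5 of 22 alternatives. In tumour HDM against tumour VEH its log2 fold change was -2.90 ± 0.46 (adjusted p = 0.0527), just outside the threshold. That comparison was called in 5 of 22 alternatives, with adjusted p from 3.61e-07 to 0.376, and passed without normal VEH 1 (0.0256) or normal VEH 2 (0.0365). The test of the difference between the 2 tumour-normal contrasts gave -3.66 ± 0.63 with an unadjusted p of 0.000117 and an adjusted p of 0.286, in an interaction test where 0% of all genes were called; 2084 genes had an unadjusted p below 0.05 there and DESeq2 called 219.

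Clec10a encodes CD301a, the paralogue that lies beside Mgl2 (ENSMUSG00000000318, chr11:70047023-70061660, plus strand). It ran from 1.52 to 9.20 CPM in normal VEH, 3.13 to 5.56 in normal HDM, 3.31 to 4.25 in tumour VEH and 1.98 to 4.43 in tumour HDM. All groups overlapped, and its log2 fold change of -0.55 ± 0.56 in tumour HDM against normal HDM did not pass (adjusted p = 0.436). The pair therefore stood at different ratios. Per kilobase of deposited gene length, Mgl2 exceeded Clec10a by 5.93 to 12.9 times in tumour VEH and 1.08 to 2.39 times in tumour HDM. In normal lung the ratio was 1.51 to 7.42. The tumour ranges of that ratio did not overlap, but its height depends on the lengths used. Deposited lengths were 2094 bases for Mgl2 and 2899 for Clec10a, and the reference transcripts have 1787 and 1498. By counts alone, tumour HDM 3 had 114 for Mgl2 and 146 for Clec10a. Their reference transcripts are 85.3% identical over 1405 aligned bases with an identical run of 183 bases, so some reads could be shared.

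Ccl17 encodes TARC, a chemokine that draws cells bearing the receptor Ccr4 (ENSMUSG00000031780, chr8:95534358-95538664, plus strand). It stood at 7.89, 3.71 and 3.96 CPM in normal VEH, 5.2, 8.0 and 6.48 in normal HDM, 3.02, 3.72 and 3.60 in tumour VEH and 0.657, 0.547 and 0 in tumour HDM. The tumour HDM values are 16, 16 and 0 counts, where 3 counts is the level that a count of 0 still allows (0.091 CPM in tumour HDM 3, for counting error only). Tumour HDM was below every other library. In tumour HDM against normal HDM, Ccl17 fell by 4.04 ± 0.86 on the log2 scale (adjusted p = 0.00311) and fell by 3.29 without tumour HDM 3, and it was called in all 21 alternatives that tested it (adjusted p from 4.03e-08 to 0.0447). Against tumour VEH the value was -3.12 ± 0.84 (adjusted p = 0.165), and under VEH tumour against normal was -0.59 ± 0.75 (adjusted p = 0.545).

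Ccl22 encodes MDC, the other ligand of Ccr4, from the same cluster on chromosome 8 (ENSMUSG00000031779, chr8:95471226-95478327, plus strand). It stood at 13.6, 3.46 and 4.46 CPM in normal VEH, 4.83, 11.8 and 9.17 in normal HDM, 12.8, 8.11 and 10.1 in tumour VEH and 3.12, 2.87 and 1.03 in tumour HDM. Here too tumour HDM lay below the other 9 libraries. In tumour HDM against normal HDM, Ccl22 fell by 1.88 ± 0.59 (adjusted p = 0.0208), a call lost without normal HDM 2, normal HDM 3 or tumour HDM 3 (adjusted p 0.0583 to 0.0855) and without the 4 libraries of conflicting prefixes (adjusted p = 0.1). Against tumour VEH it was -2.14 ± 0.59 (adjusted p = 0.172). Per kilobase of deposited gene length, Ccl17 stood above Ccl22 in all 6 normal libraries and all 3 tumour VEH libraries. Ccl22 was at 0.205 to 0.38 of Ccl17 in normal lung and 0.482 to 0.94 in tumour VEH. In tumour HDM 1 and 2, the ratio was 1.05 and 1.16.

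Ccl24 encodes eotaxin-2, a ligand of the eosinophil receptor Ccr3 (ENSMUSG00000004814, chr5:135598668-135601905, minus strand). It was near the limit of detection, with 16, 82 and 0 counts in normal VEH, 12, 2 and 12 in normal HDM, 0, 6 and 6 in tumour VEH and 4, 0 and 59 in tumour HDM. A single library in normal VEH and another in tumour HDM held most of its reads. No difference was detectable at this depth; the fitted value in tumour VEH against normal VEH was -2.68 ± 1.76 (adjusted p = 0.24).

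**Figure D3:**
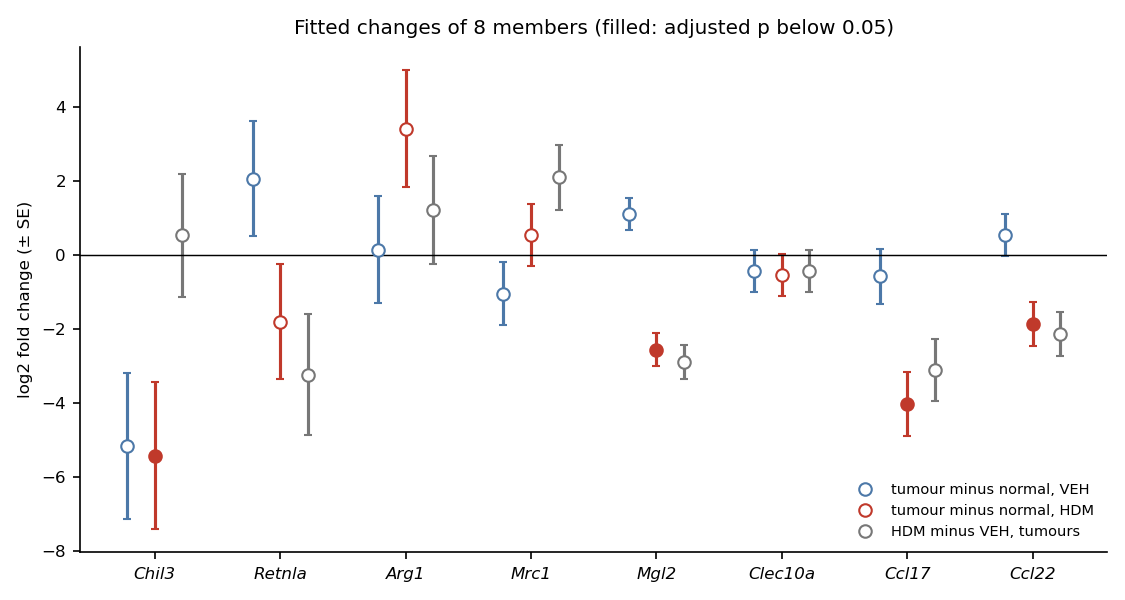
Fitted log2 fold changes with standard errors for the member genes with enough counts, in tumour against normal under VEH and under HDM and in tumour HDM against tumour VEH. Mgl2, Ccl17, Ccl22, Retnla and Clec10a lie on the negative side for both comparisons that involve tumour HDM, and Arg1 and Mrc1 on the positive side. Of these, only Mgl2, Ccl17 and Ccl22 passed the test against normal HDM, and none passed between tumours.

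Some dendritic and T cell genes were also low in tumour HDM. Of the 10 dendritic cell genes, 6 fell and 1 rose in tumour HDM against normal HDM, against 28.9% lower and 23% higher over all genes. Of the 6 T cell genes 2 fell there, which is near the share of all genes. The lectin Cd209a stood at 0.821, 0.0683 and 0.364 CPM in tumour HDM, 1.44 to 2.38 in tumour VEH and 6.23 to 13.7 in normal HDM. Ccr7, the homing receptor of migrating dendritic cells, stood at 3.41, 2.97 and 1.46 CPM in tumour HDM, 8.03 to 14 in tumour VEH and 5.74 to 9.99 in normal HDM. Other genes of the list did not follow. Fscn1, an actin-bundling protein, rose (368 to 422 CPM in tumour HDM against 17.8 to 39.7 in normal HDM), Clec9a stood at 20, 33.4 and 36 CPM against 11.8 to 23.7, and Flt3 at 3.64 to 7.43 against 4.76 to 6.55. The summed list stood at 415 to 468 CPM in tumour HDM, 448 to 521 in tumour VEH and 177 to 232 in normal HDM. In the tumours that sum was mostly Fscn1 (368 to 455 CPM in tumour VEH), so it does not describe the other genes of the list. The 6 T cell genes summed to 1.67 to 13.3 CPM in tumour HDM, 38.2 to 57 in tumour VEH and 28.3 to 33.1 in normal HDM. The part of these cells in the chemokine and Mgl2 levels was not tested.

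General macrophage genes were mostly higher in the tumours, where no member was called higher. The 8 listed were Adgre1, Csf1r, Cd68, Mertk, Fcgr1, C1qa, C1qb and C1qc. Of these, 6 rose and 1 fell in tumour VEH against normal VEH, and 5 rose and 1 fell under HDM. Over all genes, 18.2% were higher and 20.6% lower under VEH, and 23% and 28.9% under HDM. The 8 did not move alike. Under VEH Mertk fell (log2 fold change -1.80 ± 0.42, adjusted p = 0.00803) and Cd68 was not called (0.74 ± 1.02, adjusted p = 0.578). The mean log2 CPM of the 8 was 3.95 to 5.98 in normal lung and 6.49 to 7.12 in tumours. The members are therefore also given relative to this mean, as log2 differences (mean ± SD, n = 3), which are descriptive.

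On that scale Mrc1 stood at -1.28 ± 0.59 in tumour VEH and 1.16 ± 0.59 in normal VEH, and the groups did not overlap. Under HDM it stood at 0.78 ± 0.94 in tumour and 1.35 ± 0.83 in normal lung. Mgl2 stood at -4.88 ± 0.32 in tumour HDM, -1.06 ± 1.09 in normal HDM, -2.19 ± 0.23 in tumour VEH and -1.56 ± 1.68 in normal VEH. Arg1 was the member that stood higher in tumour HDM than in normal HDM on this scale, at 0.20 ± 0.37 against -3.11 ± 1.74, while under VEH its tumour and normal means were -1.5 ± 1.35 and -1.46 ± 2.55. The remaining 7 members, Chil3, Chil4, Retnla, Clec10a, Ccl17, Ccl22 and Ccl24, had lower means in tumour than in normal lung under either treatment, with differences from -0.63 for Retnla to -5.15 for Chil3 under VEH and from -1.42 for Ccl24 to -5.84 for Chil3 under HDM.

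**Figure D4:**
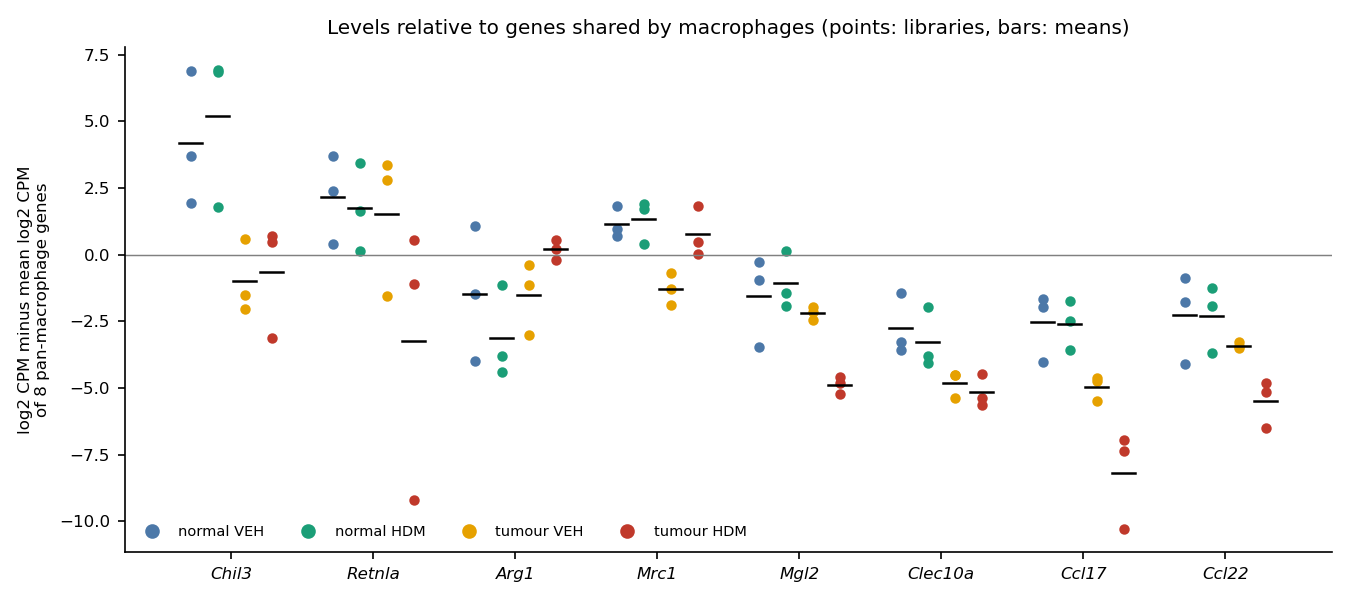
Level of the member genes relative to the mean of 8 general macrophage genes, as a log2 difference, with libraries as points and group means. Mrc1 is lower in all 3 tumour VEH libraries than in the normal VEH libraries, and Mgl2 is lowest in the 3 tumour HDM libraries.

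Of 15 genes of the interleukin-4 and interleukin-13 pathway tested, 2 rose and 5 fell in tumour against normal under VEH, and again 2 rose and 5 fell under HDM. These shares are near those of all genes, of which 38.9% were called under VEH and 51.9% under HDM. Pparg, a nuclear receptor of alveolar macrophages and of alternative activation, fell by 2.92 ± 0.60 under VEH (adjusted p = 0.00434) and fell by 3.65 ± 0.62 under HDM (adjusted p = 0.000954). Il13ra1, a receptor chain for interleukin-13, fell by 1.41 ± 0.31 (adjusted p = 0.00576) and fell by 2.48 ± 0.32 (adjusted p = 0.00025). Il2rg rose under VEH, Il13ra2 under HDM and Jak1 under both; Klf4 and Cish fell under both, Kdm6b under VEH and Irf4 under HDM. Of the signalling core, Stat6 stood at 104 to 172 CPM in all 12 libraries and Il4ra at 77.3 to 184, with log2 fold changes in tumour against normal under HDM of 0.17 ± 0.20 (adjusted p = 0.484) and 0.01 ± 0.31 (adjusted p = 0.978). The ligands were scarce, Il4 at 0.758 to 2.51 CPM and Il13 at 0 in 11 of 12 libraries. The median of the 15 was -0.18 under VEH and -0.14 under HDM, against -0.11 and -0.08 over all genes.

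Of 14 further genes of the alternative state tested, 2 rose and 2 fell under VEH, where 38.9% of all genes were called, and 4 rose and 4 fell under HDM, near the 23% and 28.9% of all genes. Mmp12, macrophage elastase, rose under both treatments, by 3.5 ± 1.0 (adjusted p = 0.0199) and 3.65 ± 1.01 (adjusted p = 0.012), and so did Il1rn, the interleukin-1 receptor antagonist. The scavenger receptor Stab1 and the folate receptor Folr2 rose under HDM, by 1.79 ± 0.33 (adjusted p = 0.00147) and 2.33 ± 0.84 (adjusted p = 0.0385). Both were highest in tumour HDM 3 (335 and 44.1 CPM), the library highest for Mrc1. Lyve1, shared with lymphatic endothelium, and Igf1 fell under both treatments, and Tgm2 and Cdh1 fell under HDM. Many genes of these lists have a gene on the opposite strand, with the same limit as for Arg1.

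The families of the members were mostly lower or too scarce to test. Of the other chitinase family genes, 3 of 6 could be tested. Chia1, an acidic chitinase, fell by 3.20 ± 1.08 under VEH (adjusted p = 0.0381) and fell by 5.97 ± 1.25 under HDM (adjusted p = 0.00306). Chi3l1 fell by 4.34 ± 1.33 under HDM (adjusted p = 0.0198), with 1.64 CPM in tumour HDM 3 against 172 to 515 in the other tumours. Of 2 tested resistin genes, Retn fell under HDM, at levels of 1.28 CPM or less. Ccr4, the receptor for Ccl17 and Ccl22, fell by 4.07 ± 1.16 in tumour HDM against normal HDM (adjusted p = 0.0133), at 0, 0.137 and 0 CPM against 0.368 to 1.43. The monocyte chemokine Ccl7 rose there (by 3.91 ± 1.02, adjusted p = 0.00935).

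Around Arg1, RNA levels of the genes for arginine transport and use changed in different directions. Slc7a1, an arginine transporter, rose by 1.86 ± 0.25 under both treatments (adjusted p = 0.000606 under VEH and 0.000275 under HDM), and Odc1, which makes polyamines from ornithine, rose by 1.08 ± 0.20 (adjusted p = 0.00278) and 1.5 ± 0.20 (adjusted p = 0.000305). Slc7a2, the other arginine transporter, fell under both treatments, and Arg2, the mitochondrial arginase, fell by 2.02 ± 0.61 under HDM (adjusted p = 0.0171). Between tumour HDM and tumour VEH, 0 of the 45 genes tested in these 6 pathway lists passed edgeR's test. Of the 45, 12 had an unadjusted p below 0.05, where 16.7% of all genes did. DESeq2 called 3 (Tgm2, Stab1 and Ccr4), where it called 5.83% of all genes.

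Within groups the members did not form 1 block. Over the 12 libraries, after the group means were removed, Chil3 and Chil4 had r = 0.85, Retnla and Ccl17 r = 0.88, Ccl17 and Ccl22 r = 0.78, Arg1 and Mrc1 r = 0.77, and Arg1 and Mgl2 r = -0.73. Among 11006 genes of at least moderate level, those most like Chil3 were Tnip1 (0.98), Lrg1 (0.978) and Mcemp1 (0.975). Those most like Retnla were the airway mucin Muc4 (0.984), Tspan1 (0.974) and Trf (0.97). The gene nearest to Mrc1 was Alox5 (0.968), to Arg1 Pmvk (0.981), to Mgl2 Pgpep1 (0.995) and to Ccl17 the tight junction gene Cldn4 (0.978). These correlations are descriptions over libraries that share depth and tissue makeup.

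The RPKM scale is CPM divided by the deposited gene length in kilobases. On it Chil3 had the highest mean of the members in normal VEH (1555 ± 2535, SD, n = 3) and normal HDM (2666 ± 2388). Retnla had the highest mean in tumour VEH (953.1 ± 813) and tumour HDM (100.5 ± 112.2). In normal lung Retnla was next, at 230.1 ± 101.8 and 351.6 ± 408.3. In tumour HDM, Retnla, Chil3 (61.97 ± 49.63), Arg1 (51.68 ± 16.14) and Mrc1 (30.72 ± 21.63) stood in this order, and the SD ranges of neighbours overlapped. Chil4 and Ccl24 were the lowest members in every group.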

How the data were processed

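RNA of 12 dissected tissue pieces was sequenced as stranded paired-end libraries, per the labels' protocols. The authors deposited raw counts per Ensembl gene; the submitters' processing notes name Trim Galore, STAR, featureCounts of the Subread package and mm39, with no versions. Symbols came from the GRCm39 annotation. Counts were tested as deposited with edgeR 4.0.16 in R 4.3.3: filterByExpr with a minimum count of 10, TMM scaling, 1 coefficient per group over all 12 libraries, the quasi-likelihood F-test, and Benjamini-Hochberg adjustment over 22190 genes, called below 0.05. Folds are log2 with standard errors. CPM is the count scaled to the TMM-adjusted library size; log2 CPM used a prior count of 2. The scripts were tested on simulated data.

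The members, gene lists and tests were chosen with earlier results of these data known. The text names all 10 members, called genes of the lists, and the 3 genes most like a member; the marker genes Atp6v0d2, Ear2, Jchain, S100a9, Muc5b, Bpifa1, Cd209a, Ccr7, Clec9a, Flt3, Marco, Car4 and Scgb1a1, and the levels of Il4, Il13, Il4ra and Stat6, were picked after their values were seen. Alternatives were DESeq2 1.42.0, other scalings and filters, blocks by replicate number and by library-name prefix, and fits without single or conflicting libraries. Promoter sequences are RefSeq's on GRCm38.p6, from which no position was carried to mm39. The fit also gave values for the members' normal lung contrast, which are not reported as tests because those levels helped to choose the members.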

Additional observations from a re-analysis of the deposited data

How the results depend on the processing

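The number of members called in tumour against normal under VEH, 0 with edgeR and TMM, became 1 with library size alone, 1 with no filter on low counts, 1 with the replicate block (Mgl2 each time), 2 with DESeq2 (Mgl2 and Chil3) and 1 without normal VEH 2 and tumour VEH 2 together (Arg1). Between tumour HDM and tumour VEH, 0 became 1 with no filter and 1 with at least 10 counts in every library (both Mgl2, the latter among 6 members tested), and 3 with DESeq2 (Mgl2, Ccl17 and Ccl22). The interaction gave 2 with DESeq2, which called 0.989% of all genes there. With 1 library left out at a time, these counts ran from 0 to 1 under VEH, from 2 to 5 under HDM, from 0 to 1 between tumours and from 0 to 1 for the interaction. The causes were not tested.

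Some uncalled members changed sign. Mrc1 under VEH became 0.21 with the prefix block, 0.22 without the 4 libraries of conflicting prefixes and 0.50 without normal VEH 2 and tumour VEH 2. Clec10a under HDM became 0.01 without those 4 libraries. Between tumours, Chil3 (0.52) became -0.26 with the replicate block, -5.30 with the prefix block and -0.36 without the 4 libraries, and the prefix block gave -2.97 for Arg1, -0.94 for Mrc1 and -1.01 for Ccl24. Leaving out 1 library gave ranges across 0 for Arg1 (-0.43 to 3.85), Mrc1 (-1.48 to 0.39) and Clec10a (-0.88 to 0.23) under VEH, for Mrc1 (-0.0751 to 0.98) and Ccl24 (-1.90 to 1.62) under HDM, and for Chil3 (-0.0373 to 1.54) and Ccl24 (-1.01 to 2.50) between tumours. No called member changed sign in any alternative run.

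Replicate numbers did not pair the libraries: same-numbered libraries correlated from -0.355 to 0.279, and not every library correlated best with its own number. The replicate block changed no other count of members. The 21 genes called between tumours in the whole table became 8 with library size alone, 52 with no filter, 53 with 10 counts in every library, 1291 with DESeq2, 1 with the replicate block, 1 without normal VEH 2 and tumour VEH 2, 0 with only the groups compared, with the prefix block or without the 4 libraries, and 0 to 24 without 1 library. Under VEH, 8624 became 5603 without the 4 libraries and 5733 without tumour VEH 1. In normal lung edgeR called 0 genes (1230 with an unadjusted p below 0.05) and DESeq2 38; the interaction gave 0, or up to 6 without 1 library. Scaling by library size alone moved the median of all genes by 0.14 under VEH and 0.18 under HDM. Members relative to macrophage genes moved by less than the spread between libraries with another prior count or 3 reference genes. Depth limits Chil4 and Ccl24, which had 0 to 42 and 0 to 82 counts.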
